A study of Mus musculus with 12 samples.

Results

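The cytosolic ribosomal protein genes are the genes named Rps and Rpl, whose products, with the ribosomal RNAs, make up the small and large subunits of the ribosome outside mitochondria. They were taken by symbol from a kidney RNA sequencing table of 25553 genes: Rps or Rpl followed by a number, with or without a final letter or a number after p, together with Rpsa, Rplp0, Rplp1 and Rplp2, and without the S6 kinase genes (Rps6k) and named pseudogenes. This gave 81 genes, 31 of the small subunit and 50 of the large subunit, and 79 of them passed the filter on low values. The kidneys came from wild type (WT) mice in 4 groups of 3. Preconditioned RIRI (HR) mice breathed 8% oxygen for 2, 4 and 8 h on days 1, 2 and 3 (hypoxic preconditioning, HPC) and then had renal ischemia-reperfusion injury (RIRI), a 45 min clamp of the vessels of both kidneys with 12 h of reperfusion. Normoxic RIRI (NR) mice had the clamp without hypoxia, preconditioned sham (HS) mice had the hypoxia and a sham operation, and normoxic sham (NS) mice had the sham operation alone. Strain, sex and age are not given in the labels, whole kidney tissue was used, and all libraries carry the same batch number.

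Ribosomal proteins are made in nearly equal amounts and assembled on ribosomal RNA in the nucleolus, so their genes are usually expressed together. Many of their mRNAs start with a run of pyrimidines, the terminal oligopyrimidine (TOP) tract, through which mTORC1 and the protein Larp1 control their translation. When assembly fails, free Rpl5 and Rpl11 bind Mdm2 and stabilise p53. The kidney tubule, which pays for transport with oxidative metabolism, is the main site of damage after ischemia and reperfusion.

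The TOP tract lies at the transcription start, so the start regions of the genes were searched for a run of 8 or more C and T bases, with at least 1 C, between 20 bases before and 30 bases after the start annotated by RefSeq (GRCm38.p6). Of the 60 members with an entry there, 34 (56.7%) held such a run on the strand of the gene, against 21.3% of all 27025 genes with an entry. Windows of 30 bases are shown for 6 members described below, 4 whose level was higher after injury in both arms and 2 (Rpl35a and Rps27l) whose level was called in neither. The capitals mark the run, and each window is written 5′ to 3′ on the strand of the gene. Relative to the annotated start, the run began at base 2 in Rpl18, 18 in Rpl10a, 9 in Rps12, −1 in Rps6, −5 in Rpl35a and −12 in Rps27l. The Rps27l run, of 9 bases, ended before the start, so a marked run need not be a TOP tract.
Rpl18 (chr7:45718062-45718091, plus strand): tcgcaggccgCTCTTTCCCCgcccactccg
Rpl10a (chr17:28328572-28328601, plus strand): aagcgctctgCCTTCTTTCCggtttccgcg
Rps12 (chr10:23787182-23787211, minus strand): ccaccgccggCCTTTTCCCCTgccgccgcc
Rps6 (chr4:86857349-86857378, minus strand): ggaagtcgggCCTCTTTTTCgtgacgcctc
Rpl35a (chr16:33056468-33056497, plus strand): cggggcttgCCTTCCTCTTTCCgccatctt
Rps27l (chr9:66946063-66946092, plus strand): actcctctccaCTCCTCCCCgccgcctcta
Over the 300 bases from 250 before to 50 after the start, searched on both strands, CCGGAA (the core of ETS factor sites) was in 33 of the 60 members and in 16.7% of all genes. AAGATGG (YY1) was in 9 of the 60 members and 7.28% of all genes, GGGCGG (GC box) in 58.3% and 38.2%, and the TATA box motif, spelled as TATAAA here, in 11.7% and 15.7%. No motif was removed where it overlapped another. These are matches of letters, and they do not show that a factor was bound.

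The 12 libraries held 33096854 to 35707662 reads as recovered from the FPKM values (fragments mapped to a gene, scaled by its length and by library depth). In each library 11301 to 11804 genes reached an FPKM of 1. In several libraries the members stood apart from their group together. NR2 was above its group's mean in 1 of the 79 members, with a median deviation of −0.17 on the log2(FPKM + 1) scale, and HR2 was above its group's mean in 78, with a median deviation of 0.13. Such joint shifts were not particular to these libraries: NR1 was above in 78 members (0.12), NS3 in 77 (0.09) and HS1 in 3 (−0.09). Proximal tubule markers, which show the tissue, summed to 2775 to 9689 FPKM per library, and none of 15 lymphocyte markers passed the filter. NR2 had the highest summed neutrophil markers of its group (295 FPKM, against 133 and 206 in NR1 and NR3) and HR2 the lowest of its group (23.9 FPKM, against 111 and 46.7 in HR1 and HR3), while HR2 had the highest summed red blood cell genes of all libraries (2266 FPKM). Results that change without NR2 and HR2 are given with that value, and the part of the cell types was not tested.

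In NS kidneys the passed members had mean levels of 1.41 to 1460.4 FPKM with a median of 262 FPKM, and 69 of them lay above 100 FPKM. FPKM is a level per length, so genes can be compared by it. Rpl41, the shortest of the ribosomal proteins, was highest at 1460.4 ± 80.2 FPKM (SD, n = 3), followed by Rplp1 at 924 ± 55.6 FPKM and Rps29 at 812 ± 46.2 FPKM. Rpl3l, the paralog of Rpl3 known from heart and skeletal muscle, was the lowest to pass, at 1.41 ± 0.383 FPKM. Both members under the filter were paralogs as well: Rpl39l, known from testis, had reads in only 2 of 12 libraries (0.137 FPKM in NR1 and 0.0326 FPKM in NS3), and Rpl32l reached at most 0.989 FPKM. Rps15a, Rpl21 and Rps20 had NS means of 28.4, 31.4 and 43.9 FPKM, far below that median. Ribosomal protein genes have many near-identical pseudogene copies, and how shared reads were counted is not given in the sources used here, so levels of single members are uncertain. Rpl6l, annotated by RefSeq as a pseudogene, had 15.4 to 19.7 FPKM in NS kidneys. Rpl41, Rps29, Rps15a, Rpl21, Rps20 and Rpl6l are named here after their values were seen.

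The members together took 8.26 ± 0.53% of all FPKM in HR, 7.89 ± 0.77% in NR, 5.68 ± 0.27% in HS and 5.09 ± 0.22% in NS kidneys (SD, n = 3 each). By mouse the share was 7.87, 8.86 and 8.04% in HR, 8.46, 7.01 and 8.18% in NR, 5.39, 5.92 and 5.72% in HS, and 5.03, 4.91 and 5.34% in NS. All 6 injured kidneys lay above all 6 sham kidneys, HR and NR overlapped, and the lowest HS mouse (5.39%) lay just above the highest NS mouse (5.34%), a separation that was lost without Kap in the total, as given next. Kap, an androgen-regulated tubule gene, took 3.40% of FPKM in HR, 4.08% in NR, 6.01% in HS and 8.79% in NS. With Kap left out of the total, a setting chosen after its values were seen, the ribosomal share was 8.55% in HR, 8.22% in NR, 6.04% in HS and 5.58% in NS. HS and NS then overlapped, with 5.76% in HS1 and 5.89% in NS3, and they also overlapped as a share of recovered reads (2.07% in HS1 and 2.17% in NS3). The summed level of the small subunit divided by that of the large subunit was 0.668 in HR, 0.659 in NR, 0.686 in HS and 0.675 in NS.

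**Figure D1:**
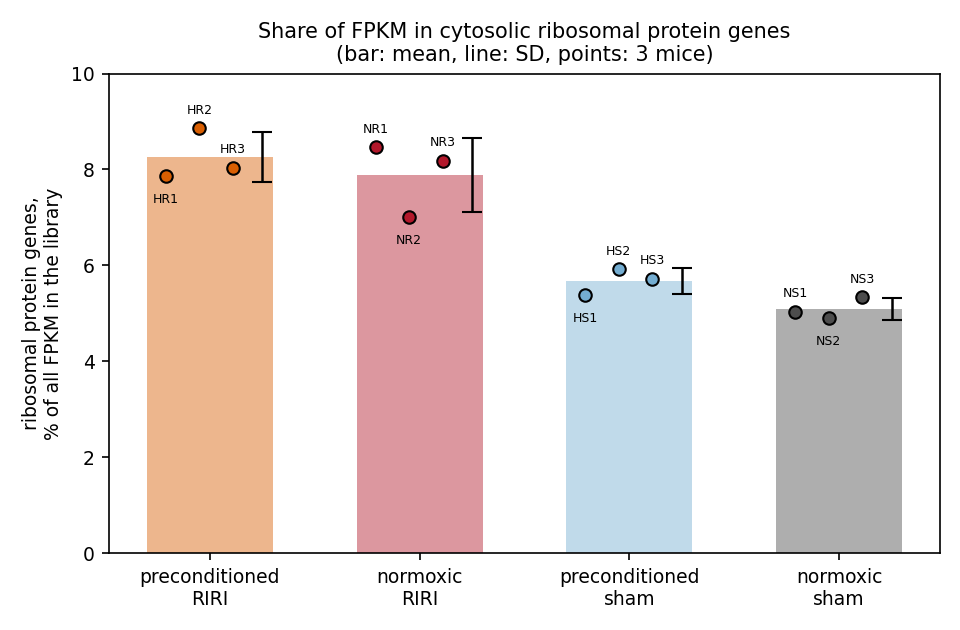
Share of the FPKM of each library (vertical axis, %) taken by the 81 ribosomal protein genes, by group. Bars are means, lines SD and points the 3 mice of a group. The HR and NR mice sit between 7.01 and 8.86%, above the HS and NS mice, which sit between 4.91 and 5.92%.

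The comparison of NR with NS asks what injury alone did to these genes. Nearly the whole ribosomal protein set was higher in injured kidneys: 75 of the 79 members were called as higher at an adjusted p under 0.05 (limma, Benjamini-Hochberg over all 12357 genes tested) and 0 as lower, where 41.6% of all genes were called as higher and 30.1% as lower. The members' median log2 fold change was 0.61, against 0.10 over all genes, which is a median ratio of mean FPKM of 1.53, and the quartiles of the members were 0.47 and 0.72. The small subunit had 30 of 31 members higher (median 0.65) and the large subunit 45 of 48 (median 0.60). The groups did not overlap in 74 members, all higher, where 42.9% of all genes were higher and 31.4% lower without overlap. Members have short transcripts, a median of 704 bases in the annotation against 2113 for all tested genes, and other genes under 1000 bases had a median log2 fold change of 0.07, against 0.14 for longer ones.

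**Figure D2:**
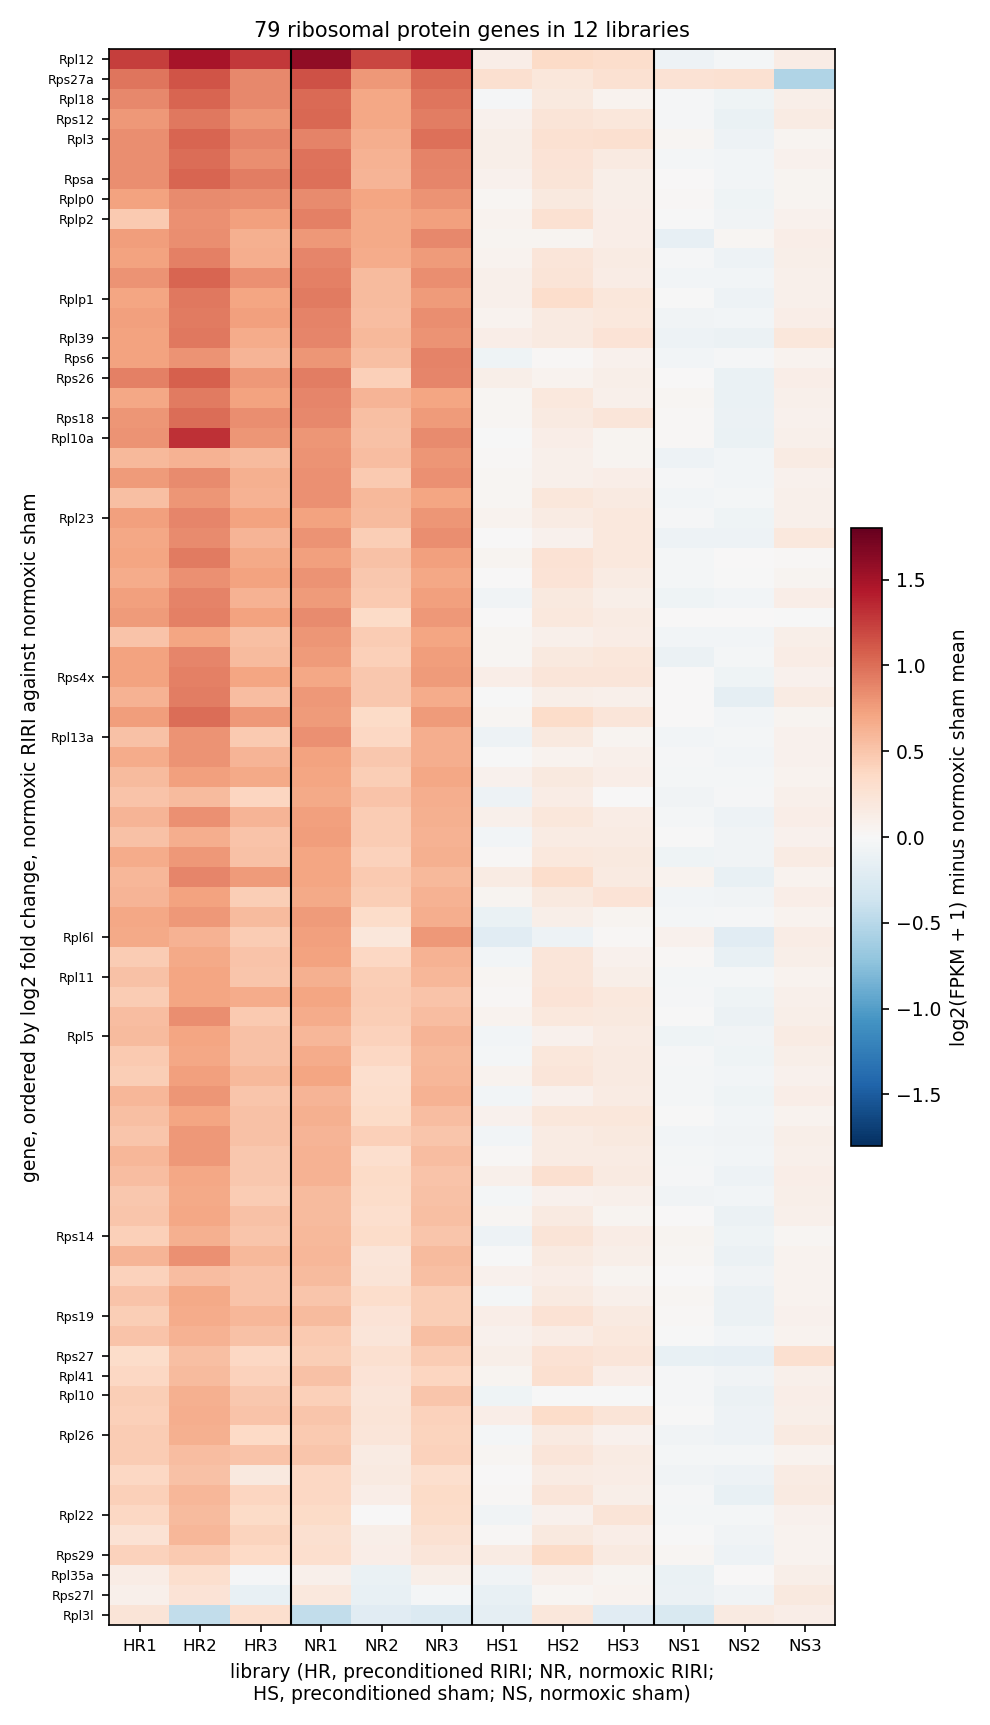
Log2(FPKM + 1) of the 79 members in the 12 libraries, as the difference from the gene's mean in NS (colour), ordered by the log2 fold change of NR against NS, with names for members described in the text. The HR and NR columns are red in nearly every row, the HS and NS columns are pale, and Rpl35a, Rps27l and Rpl3l at the foot show no common shift.

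Rpl12, which with Rplp0 forms the base of the stalk of the large subunit, had the largest change. Its level was 792, 605 and 696 FPKM in the 3 NR mice, against 244, 257 and 286 FPKM in the 3 NS mice. Every injured mouse was above every sham mouse, and the log2 fold change was 1.40 ± 0.11 (SE), a 2.66-fold difference of means (adjusted p = 3.81e-07, limma). The gene lies at chr2:32961712-32964045 (GRCm38.p6, RefSeq). The rest of the stalk, which recruits the elongation factors, was also higher. Rplp0 had 1122, 1012 and 1083 FPKM in NR and 627, 588 and 643 FPKM in NS (0.79 ± 0.07, adjusted p = 9.92e-07, limma). Rplp1 changed by 0.76 ± 0.11 and Rplp2 by 0.78 ± 0.10 on the same scale (adjusted p at most 4.11e-05, limma), without overlap of the groups.

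Rps27a, which is made as a fusion of ubiquitin and a small subunit protein, had 386, 301 and 353 FPKM in NR, against 209, 211 and 119 FPKM in NS. The groups did not overlap, but NS3 was far below the other 2 sham mice: the log2 fold change was 0.98 ± 0.18 with it and 0.71 without it (adjusted p = 4.35e-04 and 1.83e-04, limma). Rpl18 and Rps12 both changed by 0.89 ± 0.10, and Rpl3, which reaches the catalytic centre, by 0.84 ± 0.10. Rpsa, whose product is also known as a laminin receptor, changed by 0.83 ± 0.10, with 649, 496 and 602 FPKM in NR and 327, 314 and 337 FPKM in NS. Adjusted p was at most 1.09e-05 for these 4 genes (limma), and in each the 3 injured mice were above the 3 sham mice.

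Rps6, the target of the S6 kinases, had 338, 284 and 361 FPKM in NR and 188, 192 and 204 FPKM in NS (0.74 ± 0.09, adjusted p = 1.70e-05, limma). The Mdm2-binding proteins also rose as mRNA: Rpl5 changed by 0.54 ± 0.09, Rpl11 by 0.56 ± 0.08 and Rpl23 by 0.70 ± 0.08 (adjusted p at most 1.74e-04, limma). Rps4x, encoded on the X chromosome, changed by 0.65 ± 0.09, Rpl13a, known in human monocytes for a role in translational silencing, by 0.62 ± 0.12, and Rpl39, which lines the exit tunnel, by 0.76 ± 0.11. Smaller changes that passed the test were those of Rps14 (0.47 ± 0.10) and Rps19 (0.42 ± 0.09), whose human genes are lost or mutated in inherited or acquired anaemias. Rps27 (0.40 ± 0.11), Rpl10 (0.38 ± 0.09), the late-joining protein of the large subunit, and Rpl26 (0.36 ± 0.10) were in the same range. The adjusted p of these 8 genes was at most 7.38e-03 (limma).

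4 members were not called. Rps27l, a paralog of Rps27 known in human cells as a p53 target, had 45.1, 35.8 and 38.5 FPKM in NR and 36.5, 37.5 and 44.6 FPKM in NS (0.01 ± 0.12, 95% interval −0.25 to 0.27, adjusted p = 0.954, limma). Rpl35a, a large subunit protein, had 386, 335 and 391 FPKM in NR and 334, 367 and 392 FPKM in NS (0.03 ± 0.10, 95% interval −0.19 to 0.24, adjusted p = 0.829). In both genes the groups overlapped almost fully, and the sign of Rps27l turned under median-ratio rescaling (−0.08) and quantile normalization (−0.08). Rpl22, which mice can live without, had 77.1, 60.8 and 76.3 FPKM in NR and 58.8, 58.7 and 63.9 FPKM in NS (0.23 ± 0.11, adjusted p = 0.0734, limma), and was called without NR2 (0.34, adjusted p = 8.47e-03). Rpl3l was at 0.756, 1.07 and 1.02 FPKM in NR and 0.968, 1.66 and 1.60 FPKM in NS (−0.30 ± 0.20, adjusted p = 0.191). Rpl35a is singled out here after its values were seen.

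**Figure D3:**
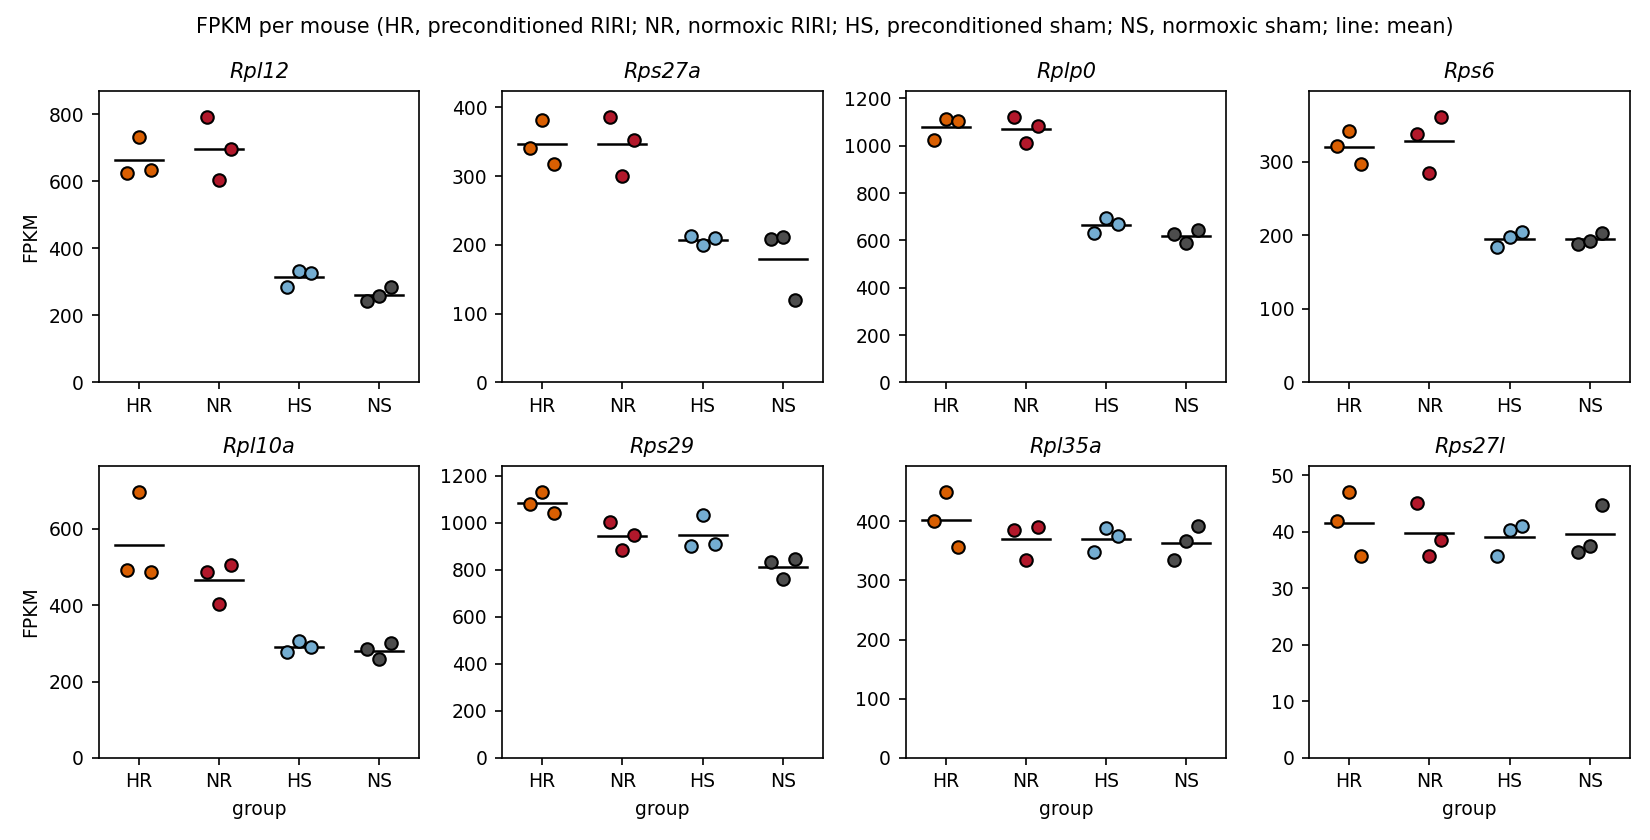
FPKM (vertical axis, linear from 0) of 8 members in each mouse, by group, with a line at the mean. Rpl12, Rps27a, Rplp0, Rps6 and Rpl10a are higher in all HR and NR mice than in all HS and NS mice, Rps29 differs less, and Rpl35a and Rps27l overlap in all groups.

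Because the members rose unequally, the make-up of the ribosomal protein mRNA pool differed. Rpl12 was 1.87 ± 0.084% of the members' summed FPKM in NR and 1.06 ± 0.048% in NS, and Rplp1 was 4.22 ± 0.16% in NR and 3.72 ± 0.050% in NS. Rpl41 was 5.15 ± 0.14% in NR against 5.88 ± 0.015% in NS, Rps29 2.54 ± 0.11% in NR against 3.27 ± 0.11% in NS, and Rpl35a 0.997 ± 0.034% in NR against 1.47 ± 0.093% in NS. These differences are larger than the SD of either group. Across the 78 members with a length, Spearman's rho between transcript length and the log2 fold change was 0.25 in NR against NS and 0.32 in HR against HS. This is a description over genes that share the same libraries.

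The comparison of HR with HS asks the same of preconditioned mice. The ribosomal protein genes were higher after injury here too: 74 of 79 were called as higher and 0 as lower, where 33.0% of all genes were called as higher and 19.4% as lower. The median log2 fold change was 0.54, against 0.10 over all genes. All 79 values were positive, from 0.08 in Rps27l to 1.07 in Rpl12, where 59.9% of all genes had a positive value. The groups did not overlap in 76 members, all higher, where 40.2% of all genes were higher and 23.1% lower without overlap. The small subunit had 28 of 31 members higher (median 0.53) and the large subunit 46 of 48 (median 0.55).

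Rpl12 again had the largest change, with 624, 732 and 633 FPKM in HR and 284, 334 and 325 FPKM in HS (1.07 ± 0.11, adjusted p = 1.28e-05, limma). Rpl10a, a protein of the large subunit, came second with 493, 696 and 488 FPKM in HR and 278, 306 and 291 FPKM in HS. HR2 was far above the other 2 mice of its group, and the log2 fold change of Rpl10a was 0.92 ± 0.13 with it and 0.75 without it (adjusted p = 1.51e-04 and 1.49e-04, limma). Rpl18 changed by 0.85 ± 0.10, Rps26, which contacts the mRNA ahead of the start codon, by 0.83 ± 0.12, Rpsa by 0.79 ± 0.10 and Rps18, a protein of the head of the small subunit, by 0.75 ± 0.10 (adjusted p at most 1.78e-04, limma). In these 6 genes every HR mouse was above every HS mouse.

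In the stalk, Rplp0 had 1024, 1113 and 1105 FPKM in HR and 633, 697 and 668 FPKM in HS (0.70 ± 0.07), Rplp1 changed by 0.59 ± 0.11 and Rplp2 by 0.53 ± 0.10. Rps6 had 321, 341 and 296 FPKM in HR and 184, 197 and 205 FPKM in HS (0.71 ± 0.09). Rps27a changed by 0.73 ± 0.18, Rpl3 by 0.70 ± 0.10, Rpl23 by 0.65 ± 0.08, Rpl39 by 0.60 ± 0.11, Rps4x by 0.60 ± 0.09, Rpl13a by 0.57 ± 0.12, Rpl10 by 0.55 ± 0.09, Rpl5 by 0.55 ± 0.09 and Rpl11 by 0.46 ± 0.08. Rps14 changed by 0.43 ± 0.10, Rpl26 by 0.41 ± 0.10, Rps19 by 0.39 ± 0.09 and Rpl22 by 0.35 ± 0.11 (adjusted p at most 0.0165 for all members of this paragraph, limma). Of these, Rpl22 was not called without HR2 (0.28, adjusted p = 0.0612) or without HS1 (0.28, adjusted p = 0.0738).

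The 5 members not called were Rps27l (0.08 ± 0.12), Rpl3l (0.09 ± 0.20), Rpl35a (0.11 ± 0.10), Rps29 (0.20 ± 0.08, adjusted p = 0.0561, limma) and Rps27 (0.22 ± 0.11, adjusted p = 0.121). The first 3 had overlapping groups, with 41.9, 46.9 and 35.8 FPKM of Rps27l in HR and 35.7, 40.3 and 41.0 FPKM in HS. Rps27l had a log2 fold change of −0.01 under median-ratio rescaling and without HR2.

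The arms share no mouse, and their injury effects can be set side by side. Across the 79 members the log2 fold changes of HR against HS and of NR against NS had a Pearson's r of 0.89 and a Spearman's rho of 0.87, as a description over genes that share libraries within each arm. 73 members were called as higher in both arms, where 29.4% of all genes were. The change was larger in the preconditioned arm for 27 members and in the normoxic arm for 52.

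**Figure D4:**
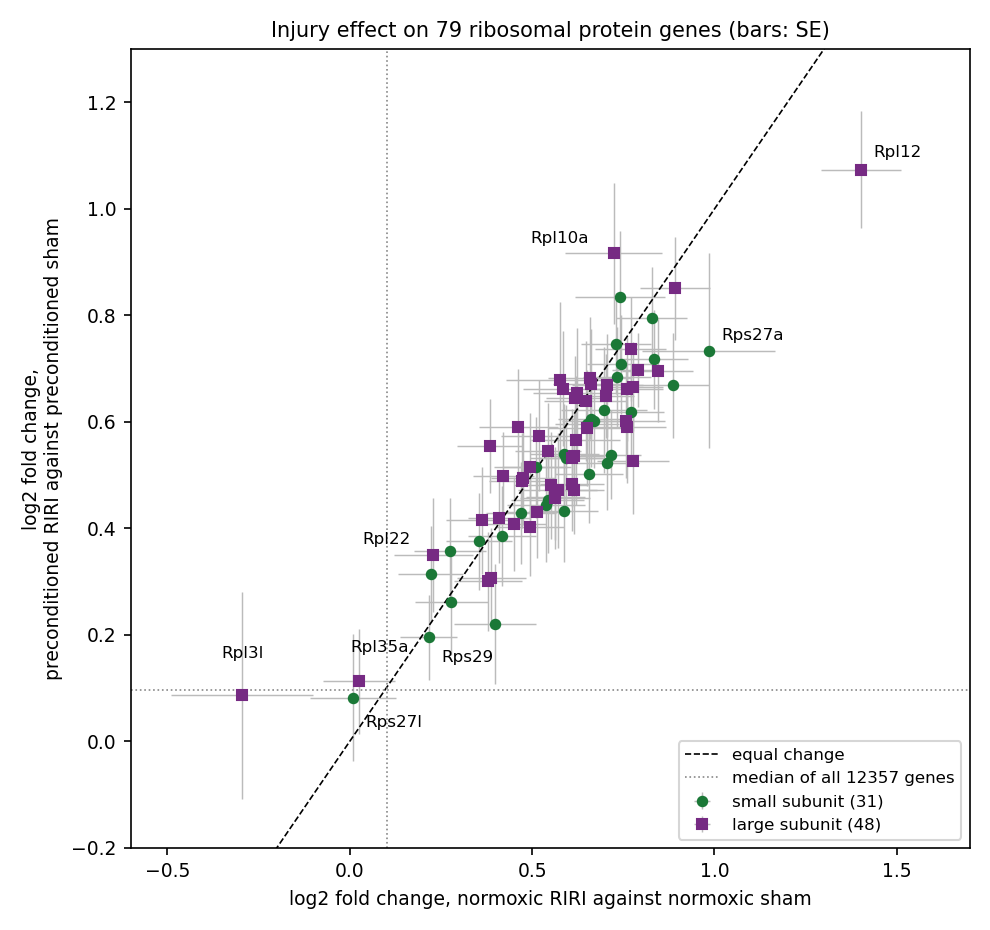
Log2 fold change of each of the 79 members in HR against HS (vertical) and in NR against NS (horizontal), with SE bars; dotted lines mark the median of all genes and the dashed line equal change. The points lie along the dashed line, with Rpl12 farthest out on both axes and Rpl35a and Rps27l nearest to 0. Rpl3l is the only member below 0 on the horizontal axis.

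The interaction, HR minus HS less the difference of NR minus NS, tests whether preconditioning altered the injury response. No member was called (0 higher and 0 lower in limma, 0 at an unadjusted p under 0.05, and 0 with voom on recovered reads), where 11.3% of all genes were called as higher and 12.6% as lower. The members' median was −0.05, against −0.00 over all genes, and single values ran from −0.33 ± 0.16 in Rpl12 (adjusted p = 0.143) to 0.38 ± 0.28 in Rpl3l (adjusted p = 0.336). For 71 of 79 members the 95% interval lay within 0.5 of 0 on the log2 scale. This bound is near the members' median injury effects (0.61 in NR against NS and 0.54 in HR against HS). An interval within it does not exclude a sizeable difference between the arms. The 8 with wider reach were Rpl12 (−0.67 to 0.01), Rps27a (−0.82 to 0.32), Rplp2 (−0.56 to 0.05), Rps12 (−0.52 to 0.09), Rps27 (−0.53 to 0.17), Rpl10a (−0.22 to 0.60), Rpl6l (−0.35 to 0.56) and Rpl3l (−0.22 to 0.98). With NR2 and HR2 both left out, a setting chosen after seeing the data, the members' median interaction was −0.20, against −0.04 over all genes, with a median injury effect of 0.47 in preconditioned and 0.69 in normoxic mice. 2 members were then called as lower, and Rpl12 was the lower of them (−0.50, adjusted p = 0.0294, limma). NR2 was below and HR2 above its group's mean in nearly all members. Leaving out this pair therefore lowers the interaction by construction, and these values are no test of it.

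HR against NR compares the injured kidneys directly, and it shares its samples with the comparisons above. No ribosomal protein gene passed the test: 0 of 79 were called in either direction with limma and 0 with voom, where 42.1% of all genes were called, 24.7% as higher and 17.4% as lower. The median log2 fold change was 0.07, against 0.06 over all genes, and it turned to −0.03 under median-ratio rescaling and −0.07 without NR2 and HR2. Leaving out that pair lowers this median by construction as well. The 95% interval lay within 0.5 of 0 for 77 of 79 members, the others being Rpl10a (−0.04 to 0.54) and Rpl3l (−0.10 to 0.75). Here too the bound is near the members' median injury effects. Rplp0 had 1024, 1113 and 1105 FPKM in HR and 1122, 1012 and 1083 FPKM in NR (95% interval of the log2 fold change −0.14 to 0.16).

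1 member, Rps29, a small zinc-binding protein of the small subunit, had an unadjusted p under 0.05. It had 1078, 1129 and 1042 FPKM in HR and 1005, 882 and 946 FPKM in NR (0.20 ± 0.08, adjusted p = 0.0621, limma). The groups did not overlap in it, and with it 3 members were higher without overlap and 0 lower, where 27.8% of all genes were higher and 19.9% lower. Rps29 was called under some settings (0.44 under quantile normalization, with an adjusted p of 3.72e-04, and 0.24 without NR1, with 0.0384). It is singled out after its values were seen.

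HS against NS asks what hypoxia alone left behind. Again 0 of 79 members were called in either direction (limma, and 0 with voom), where 0.186% of all genes were called as higher and 0.235% as lower. 5 members had an unadjusted p under 0.05, all higher: Rps29, Rpl37a, Rpl12, Rpl3 and Rps28. The median log2 fold change was 0.11 (0.03 under median-ratio rescaling), against 0.06 over all genes. Of the 79 values 75 were positive, where 69.7% of all genes had a positive value. 14 members were higher without overlap and 0 lower, where 23.0% of all genes were higher and 6.36% lower. Rps29 had 900.1, 1034 and 908 FPKM in HS and 831, 759.7 and 846 FPKM in NS (0.22 ± 0.08, adjusted p = 0.253, limma). Rpl12 had 284, 334 and 325 FPKM in HS and 244, 257 and 286 FPKM in NS (0.26 ± 0.11, adjusted p = 0.315), so HS1 (284 FPKM) lay below NS3 (286 FPKM).

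Among paralogs and relatives of the members, 4 of 8 were called as higher in NR against NS, near the 41.6% of all genes, and 5 of 8 in HR against HS, where 33.0% of all genes were. Rpl22l1, the paralog that stands in for Rpl22 in mice, had 96.0, 101 and 109 FPKM in NR and 42.3, 44.7 and 55.9 FPKM in NS (1.09 ± 0.12, adjusted p = 8.99e-06, limma). In HR it had 88.5, 95.5 and 71.7 FPKM, against 45.5, 52.3 and 54.3 FPKM in HS (0.73 ± 0.12, adjusted p = 4.69e-04). The ratio of Rpl22l1 to Rpl22 was 1.04 ± 0.097 in HR, 1.44 ± 0.21 in NR, 0.79 ± 0.026 in HS and 0.79 ± 0.080 in NS, so that all injured kidneys lay above all sham kidneys. The interaction of Rpl22l1 was −0.36 ± 0.18 and did not pass the test (adjusted p = 0.160).

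Fau, a fusion of a ubiquitin-like protein with a small subunit protein, was not called (0.18 ± 0.09 in NR against NS, adjusted p = 0.0717, and 0.14 ± 0.09 in HR against HS, adjusted p = 0.195). Rack1, a scaffold on the small subunit, changed by 0.74 ± 0.08 in NR against NS and 0.65 ± 0.08 in HR against HS, Rps3a1 by 0.49 ± 0.11 and 0.60 ± 0.11, and Rpl7l1 by 0.52 ± 0.07 and 0.41 ± 0.07 (adjusted p at most 1.24e-03, limma). Rpl36al was called in HR against HS (0.32 ± 0.08, adjusted p = 4.21e-03) and not in NR against NS (0.15 ± 0.08, adjusted p = 0.0955).

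The rest of the translation machinery was taken from lists and is set beside the members. Of 60 ribosome biogenesis genes, 56 were called as higher in NR against NS (median 1.19) and 56 in HR against HS (median 0.80). The share was 93.3% in each, where 41.6% and 33.0% of all genes were called as higher. Ncl, nucleolin, had 66.0, 61.1 and 62.6 FPKM in NR and 18.7, 18.4 and 18.5 FPKM in NS (1.72 ± 0.06), while it had 44.8, 44.5 and 46.6 FPKM in HR and 20.2, 19.5 and 21.3 FPKM in HS (1.12 ± 0.06). In the interaction 18 of the 60 were called as lower and 0 as higher, led by Las1l, which processes ribosomal RNA (−1.03 ± 0.09, adjusted p = 1.16e-04, limma), Ncl (−0.60 ± 0.08) and the helicase gene Ddx21 (−0.66 ± 0.13). Over all genes 12.6% were called as lower in the interaction and 11.3% as higher. In HR against NR 33 of the 60 were lower (55%) and 0 higher, where 17.4% of all genes were lower and 24.7% higher.

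Of 43 elongation and initiation factor genes, 39 were called as higher in NR against NS (median 0.61) and 37 in HR against HS (median 0.49). The shares were 90.7% and 86%, where 41.6% and 33.0% of all genes were called as higher. In the interaction 13 were lower and 0 higher, with Eif4a1, the helicase of cap-dependent initiation, at −0.64 ± 0.11 and Eif6, which keeps free large subunits from joining, at −0.72 ± 0.14 (adjusted p at most 4.21e-03, limma). In HR against NR 17 were lower (39.5%) and 1 higher (2.33%). Over all genes the shares were 12.6% lower and 11.3% higher in the interaction, and 17.4% lower and 24.7% higher in HR against NR. Eef1a1, an elongation factor with a TOP mRNA that is named here outside the rule, had 3627, 3389 and 3758 FPKM in NR and 2486, 2344 and 2586 FPKM in NS, and 3454, 3728 and 3793 FPKM in HR and 2389.6, 2525 and 2609.9 FPKM in HS. All injured kidneys were above all sham kidneys in it, and the HR and NR mice overlapped.

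**Figure D5:**
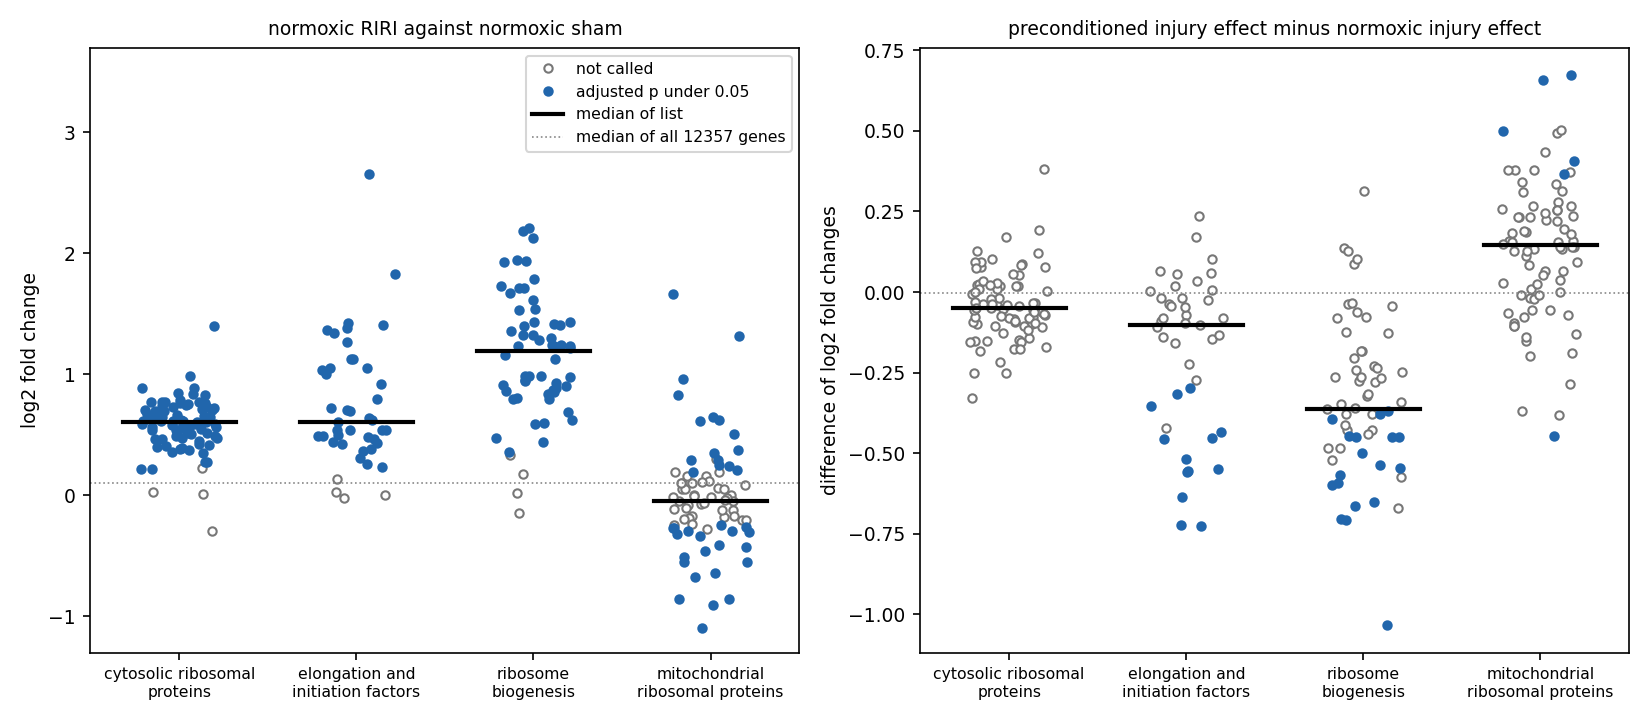
Log2 fold change of NR against NS (left) and the interaction (right) for the members and 3 other lists, a point per gene, filled where the adjusted p was under 0.05; thick lines are list medians and the dotted line the median of all genes. The 79 members have no filled point on the right, where 13 of 43 factor genes and 18 of 60 biogenesis genes are filled and below 0. Over all genes 12.6% were called as lower in the interaction and 11.3% as higher.

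The 78 mitochondrial ribosomal protein genes, whose products make the separate ribosome inside mitochondria, had 16 called as higher and 21 as lower in NR against NS, with a median of −0.05. These are 20.5% and 26.9%, where 41.6% and 30.1% of all genes were. In HR against HS 21 were higher and 5 lower (26.9% and 6.41%, median 0.06), where 33.0% and 19.4% of all genes were. In HR against NR 21 were higher and 4 lower (26.9% and 5.13%, median 0.19), where 24.7% and 17.4% of all genes were. In the interaction 5 were higher and 1 lower (6.41% and 1.28%), where 11.3% and 12.6% of all genes were. Mrps18b was higher in NR against NS (1.67 ± 0.07) and had an interaction of −0.45 ± 0.10 (adjusted p = 7.47e-03, limma). The differences in counts between the members and these lists have no test of their own.

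Among regulators, the list of mTORC1 and TOP mRNA genes had 13 of 28 higher (46.4%) and 7 lower in NR against NS, near the shares of 41.6% and 30.1% over all genes. Eif4ebp1, the translational repressor that mTORC1 switches off, averaged 239 ± 14.6 FPKM in NR and 13.3 ± 0.949 FPKM in NS (SD, n = 3 each), a log2 fold change of 4.07 ± 0.13. It averaged 101 ± 19.1 FPKM in HR and 17.7 ± 2.40 FPKM in HS, a log2 fold change of 2.43 ± 0.13. Its interaction was −1.64 ± 0.19 (adjusted p = 5.05e-04, limma). Mtor and Larp1 are named here outside the rule. Mtor was lower in NR against NS and in HR against HS (−0.51 ± 0.16 in each). Larp1 was higher in both, by 0.65 ± 0.08 and 0.42 ± 0.08 (adjusted p at most 0.0172 for the 2 genes, limma). Of 14 ribosome stress and p53 genes, 11 were higher (78.6%) and 1 lower (7.14%) in NR against NS, where 41.6% and 30.1% of all genes were. Myc, a driver of ribosome genes, changed by 4.15 ± 0.22, Cdkn1a, a p53 target that arrests the cell cycle, by 4.75 ± 0.27, and Trp53 itself by 1.68 ± 0.13. The interaction was −1.12 ± 0.31 for Myc, −1.85 ± 0.39 for Cdkn1a and −0.47 ± 0.15 for Mdm2, the p53 ligase that the free ribosomal proteins bind (adjusted p at most 0.0452, limma). Of 19 genes of ribosome collision and quality control, Rack1 among them, 11 were higher (57.9%) and 3 lower (15.8%) in NR against NS. Over all genes 41.6% and 30.1% were. In the interaction 5 of the 19 were lower (26.3%), where 12.6% of all genes were.

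Markers of cell types moved with injury as well. All 15 proximal tubule markers were lower in NR against NS and 14 in HR against HS, where 30.1% and 19.4% of all genes were. The summed level of these markers was 4444 to 4823 FPKM in HR and 2775 to 3491 FPKM in NR. It was 9239.6 to 9689 FPKM in HS and 9452 to 9579.9 FPKM in NS. All 10 tubular injury genes were higher in both arms, where 29.4% of all genes were called as higher in both. Summed neutrophil markers were 23.9 to 111 FPKM in HR, 133 to 295 FPKM in NR, 1.84 to 4.57 FPKM in HS and 2.55 to 15.2 FPKM in NS, and those of monocytes and macrophages 134 to 137 FPKM in HR, 189 to 240.3 FPKM in NR, 92.6 to 94.5 FPKM in HS and 92.3 to 103 FPKM in NS. The macrophage list went both ways in NR against NS, with 6 of 13 markers higher and 2 lower, so its sum is not a level of the cell type alone. These sums did not overlap between HR and NR, while those of endothelium (230.5 to 257 FPKM in HR and 227 to 297 FPKM in NR), fibroblasts and pericytes, podocytes and red blood cells did. In whole tissue, fewer cells of a type and less RNA per cell cannot be told apart, and the part of cell types in the ribosomal protein result was not tested.

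By start region, the 33 tested members with a pyrimidine run had a median log2 fold change of 0.59 in NR against NS, and the 25 without a run 0.62. In HR against HS the medians were 0.53 and 0.55. The windows shown above came from members at both ends of this range, such as Rpl18 at 0.89 and Rps27l at 0.01.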

How the data were processed

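RNA sequencing of 12 mouse kidneys was used, 3 per group. The authors deposited 1 table of FPKM values per gene symbol. Per the submitters' processing notes, mm10, HTSeq and DESeq2 were used, with no versions or roles. The aligner, annotation and handling of shared reads and strand were not given in the sources used here. After scaling for depth, all genes' values fitted whole numbers of reads (tolerance 1e-05), and the smallest that fitted were taken as the recovered reads. For genes with reads in few libraries these numbers can be too low. Genes with FPKM of 1 or more in 3 or more libraries (12357) entered 1 fit of 4 group means in limma 3.58.1 (R 4.3.3), trended by level, with log2(FPKM + 1) as the response. Fold changes on this scale understate those of low genes. P-values were adjusted over all genes tested (Benjamini-Hochberg) and called under 0.05; the script was tested on simulated data. Each member with an NS mean over 100 FPKM had at least 2591 reads in every library. Whether mice share a cage or litter is not given in the labels.

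Members, lists and named genes were chosen with earlier results of these data known. Named were, per contrast, the 6 largest increases and 6 largest decreases among called members with a mean FPKM of 5 or more in the higher group, a list of members fixed by name, every member below the filter, and up to 4 called genes per list with the smallest adjusted p. Start regions came from RefSeq (GRCm38.p6). The alternatives covered the pseudocount, the filter, scaling, model, block, minimum effect and left-out libraries. Results for some genes are not reported here.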

Additional observations from a re-analysis of the deposited data

How the results depend on the processing

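The counts of 75 and 74 members higher after injury in the normoxic and preconditioned arms were within 1.5 times of these values in every alternative run, with 0 lower in all. They were lowest with a minimum log2 fold change of 0.25 (61 and 54) and ranged over 71 to 76 and 70 to 75 when single libraries were left out. Median-ratio rescaling gave 71 and 70, with members' medians of 0.52 and 0.44. In HR against NR, 7 members were higher under quantile normalization, 1 after rescaling to TPM, 1 with equal totals over other genes and 1 without NR2 and HR2, and 1 was lower under median-ratio rescaling and 1 without NR2 and HR2; leaving out single libraries gave 0 to 1 higher (Rps21 without HR1, Rpl3l without HR2, Rps29 without NR1). The causes were not tested. The interaction had 2 lower without NR2 and HR2, a pair whose removal lowers it by construction, and 0 in all other settings. Without the 5 highest members, by construction, the share of FPKM was 6.81% in HR, 6.501% in NR, 4.62% in HS and 4.18% in NS, and without Kap it was 6.04% in HS and 5.58% in NS.

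Single members were followed across the alternatives only where named, 25 in NR against NS and 26 in HR against HS. Among these, the reversed signs were in Rps27l and Rpl3l, which were not called. Rps27l in NR against NS was −0.076 under median-ratio rescaling, −0.077 under quantile normalization, −0.083 without NR1, −0.046 without NS1 and −0.026 without NS2. In HR against HS, Rps27l was −0.011 under median-ratio rescaling and −0.0083 without HR2, and without NR2 and HR2 together. Rpl3l was −0.015 without HR1 and −0.050 without HR3. Over single left-out libraries, Rps27l ran from −0.083 to 0.097 in the normoxic arm and from −0.0083 to 0.183 in the preconditioned arm, and Rpl3l from −0.050 to 0.323 in the preconditioned arm.

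Libraries with the same replicate number showed no steady correlation, which cannot exclude a pairing of the mice. Of 18 pairs of same-numbered libraries the correlations of deviations from the group means ran from −0.25 to 0.17, with 4 over 0.1. Of the 12 libraries 5 correlated best with their own number. With the replicate block, 73 members were higher in each arm and 0 were called elsewhere. The median SE of a member's log2 fold change was 0.096, which limits what 3 mice a group can resolve. The members below the filter had at most 20 recovered reads per library, a number that can be too low.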
